A study of Mus musculus with 3 samples.

Results

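The Ly6 surface antigens examined here were 7 genes of mouse chromosome 15, Ly6a, Ly6c1, Ly6c2, Ly6d, Ly6e, Ly6g and Ly6i, taken by symbol from the 31053 genes of a single-cell RNA-seq study of the mouse pancreas. The cells were live and sorted for CD45, the pan-leukocyte surface marker, and 3 libraries were made, with 1 library per group. The PBS library came from mice injected with saline, the 3-day WGP library from mice given WGP 3 days before they were killed, and the 7-day WGP library from mice given it 7 days before. WGP is a particulate beta-glucan from yeast, given once at 1 mg into the peritoneal cavity, and the study's methods describe wild-type C57BL/6J mice of both sexes, aged 6 to 8 weeks. How many mice went into each library, and of which sex, is not given by the labels, so that treatment, library and mice cannot be told apart. With 1 library per group there was no replicate error and no test, and every interval printed below covers counting error only (95%, Poisson for levels, binomial for shares).

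Ly6 proteins are small surface proteins held in the membrane by a glycolipid (GPI) anchor, with a compact three-finger fold fixed by disulfide bonds. Ly6a is Sca-1, a marker of blood stem cells that is also found on lymphocytes and vessels, Ly6c1 and Ly6c2 encode the Ly6C antigen that separates classical from patrolling monocytes, and Ly6g encodes the antigen used to sort neutrophils. Ly6d marks committed B-lineage precursors, Ly6e is a widely expressed interferon-inducible gene, and several members of the family are known to respond to interferons.

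The genes lie within 1 stretch of chromosome 15 (GRCm38), in the order Ly6d (74762056 to 74763620), Ly6e (74955051 to 74959905), Ly6i (74979534 to 74983430), Ly6a (74994877 to 74998031), Ly6c1 (75044018 to 75048830), Ly6c2 (75108158 to 75111970) and Ly6g (75155240 to 75159126). All are protein-coding. Ly6e and Ly6g are read from the plus strand and the other members from the minus strand. The Ly6c1 and Ly6c2 proteins were identical at 94.66% of 131 aligned residues and their coding sequences at 97.71%. Ly6a and Ly6i were less close, with 71.64% of residues and 86.32% of coding bases identical, and Ly6a was as close to Ly6g (71.64% of residues). Ly6d and Ly6e shared between 22.97% and 28.78% of residues with each other and with the remaining members.

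The last 120 coding bases of both similar pairs, all within the final coding exon, are given here because the 3′ libraries read this end of the gene. Capitals mark the bases that differ within a pair. The Ly6c1 stretch (chr15:75045405-75045524, minus strand) and the Ly6c2 stretch (chr15:75108546-75108665, minus strand) differed at 2 bases, and the Ly6a stretch (chr15:74995265-74995384, minus strand) and the Ly6i stretch (chr15:74979917-74980036, minus strand) at 10.
Ly6c1: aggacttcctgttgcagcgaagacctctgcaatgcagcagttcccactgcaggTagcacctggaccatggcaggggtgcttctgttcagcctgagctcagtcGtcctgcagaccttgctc
Ly6c2: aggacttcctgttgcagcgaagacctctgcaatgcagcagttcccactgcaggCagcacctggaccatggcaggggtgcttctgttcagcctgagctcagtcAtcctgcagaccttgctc
Ly6a: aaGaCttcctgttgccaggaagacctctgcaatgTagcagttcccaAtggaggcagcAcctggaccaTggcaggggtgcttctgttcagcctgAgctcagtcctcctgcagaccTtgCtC
Ly6i: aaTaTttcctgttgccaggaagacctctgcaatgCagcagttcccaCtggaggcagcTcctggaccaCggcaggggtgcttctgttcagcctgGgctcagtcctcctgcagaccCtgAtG

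Of the 376 windows as long as a transcript read of the study in the last 500 bases of the Ly6c1 transcript, 0 were identical to a stretch of Ly6c2, but 243 differed from it at 2 bases or fewer, and the same held for 0 and 250 of the 376 windows of Ly6c2 against Ly6c1. The median was 2 mismatches in both directions. Between Ly6a and Ly6i the median was 22 mismatches, and the closest window still differed at 9. A Ly6c1 or Ly6c2 read can thus hold as few as 1 or 2 bases that tell the genes apart, and how the counting split such reads was not tested.

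RefSeq promoter windows (GRCm38.p6) were at hand for 3 of the 7 members, with 2 windows at different starts for each. Levels of these 3 genes differed between classes, although neutrophils held both Ly6c2 and Ly6g. The 250 bases before the RefSeq start that lies farther upstream are shown for each. They are Ly6c1 (chr15:75048838-75049087, minus strand), Ly6c2 (chr15:75111972-75112221, minus strand) and Ly6g (chr15:75155011-75155260, plus strand), with capitals at the letters TATAAA. The Ly6g stretch runs 21 bases past the start of the gene given above, since that annotation begins farther upstream.
Ly6c1: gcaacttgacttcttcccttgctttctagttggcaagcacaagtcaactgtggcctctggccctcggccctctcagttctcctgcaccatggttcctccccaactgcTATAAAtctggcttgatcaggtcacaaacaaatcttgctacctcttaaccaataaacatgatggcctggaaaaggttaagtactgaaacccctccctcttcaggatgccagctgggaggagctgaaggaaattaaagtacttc
Ly6c2: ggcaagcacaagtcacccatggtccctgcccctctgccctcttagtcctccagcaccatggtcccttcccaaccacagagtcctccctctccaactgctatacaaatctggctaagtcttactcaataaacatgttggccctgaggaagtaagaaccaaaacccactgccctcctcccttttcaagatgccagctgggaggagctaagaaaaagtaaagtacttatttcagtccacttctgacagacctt
Ly6g: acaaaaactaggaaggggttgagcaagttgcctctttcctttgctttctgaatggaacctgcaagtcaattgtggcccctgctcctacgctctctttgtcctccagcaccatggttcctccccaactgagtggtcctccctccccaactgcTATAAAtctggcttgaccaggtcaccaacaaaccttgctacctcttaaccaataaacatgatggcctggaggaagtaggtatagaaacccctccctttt
These letters, searched on both strands, occurred once in the Ly6c1 and Ly6g windows shown and not in that of Ly6c2. Of the second windows, that of Ly6g held them and those of Ly6c1 and Ly6c2 did not. They were found in 12.4% of all 32851 RefSeq promoter windows of this length. Neither an ISRE-like motif (978 promoters, 2.98%) nor TTCNNNGAA (2306 promoters, 7.02%), both searched on both strands for their likeness to interferon response elements, matched in any of these 6 windows, which says only that these letters are not in these windows. The Ly6c1 and Ly6c2 windows were identical at 59.38% of aligned columns, and at 80.66% once columns with gaps were left out.

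Barcodes with at least 1000 UMIs (unique molecular identifiers, the count of captured transcripts) and at most 30% mitochondrial UMIs numbered 5249 in PBS, 4879 at 3 days and 4174 at 7 days, with medians of 5755, 5754 and 8077 UMIs. The libraries held between 48219246 and 56849043 UMIs in all. Of the barcodes used, 2039, 479 and 1208 carried Xist and 1736, 2510 and 1865 chromosome Y transcripts, in that order of libraries, so that few 3-day barcodes carried Xist, and 15 barcode sequences occurred in 2 libraries. Classes were named from marker lists without any Ly6 gene and are rebuilt names, to be read as "like" the cell type. Levels are given as CPM, the UMIs of a gene divided by all UMIs that the library's barcodes of that class held and scaled to a common total, with 1 UMI for each captured 3′ end and no scaling for length. Free RNA made up an estimated 1.08%, 1.68% and 0.988% of the UMIs of B, T and NK cells and would give at most 16.0 CPM of any member there (Ly6e in 3-day WGP).

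Across all barcodes the levels of Ly6i and Ly6c2 were higher in 7-day WGP than in PBS. Ly6i had 7.70 CPM in PBS, 17.8 at 3 days and 314 at 7 days, and Ly6c2 had 286, 415 and 662 CPM. Ly6d went the other way, with 1002, 700 and 269 CPM. The makeup of the libraries differed as well, with 1946 B cells in PBS and 517 in 7-day WGP against 798 and 1457 cells of the monocyte/macrophage class, so each member is described within classes. The members differed in the cells that carried them, with Ly6g in neutrophils, Ly6i in myeloid cells, Ly6d in B cells, plasma cells and plasmacytoid dendritic cells (DCs), Ly6c1 in endothelial cells and fibroblasts, and Ly6e in all leukocyte classes.

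**Figure D1:**
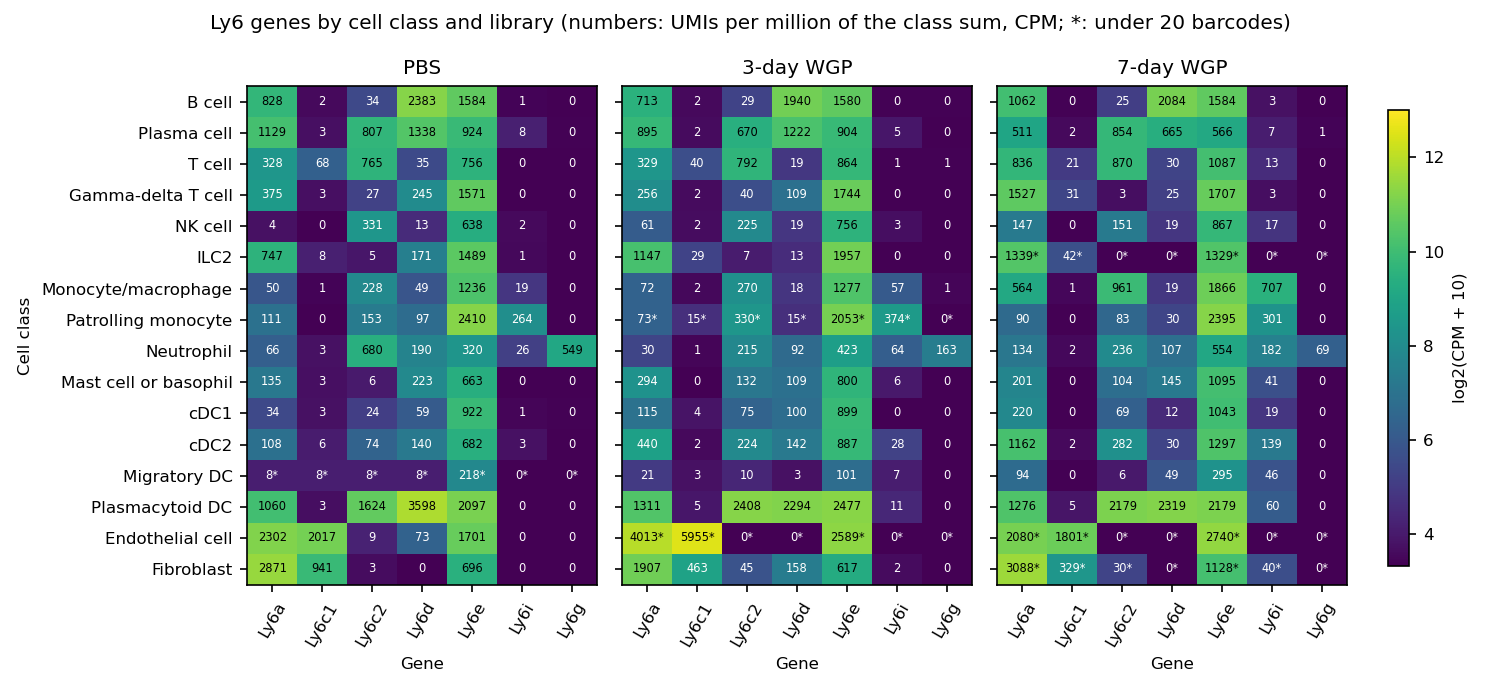
Levels of the 7 Ly6 genes (columns) in 16 cell classes (rows) of each library, as CPM of the UMIs summed over a class (printed numbers) and as log2(CPM + 10) (colour). Ly6g stands at 549 CPM in PBS neutrophils, Ly6d at 2383 CPM in PBS B cells, and Ly6i at 707 CPM in the monocyte/macrophage class of 7-day WGP; an asterisk marks classes of under 20 barcodes.

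The monocyte/macrophage class (798, 766 and 1457 barcodes) held the largest differences of Ly6i. This gene had 19.2 CPM in PBS (16.4 to 22.3), 56.7 at 3 days (52.5 to 61.2) and 707 at 7 days (694 to 719). Its log2 ratio to PBS was 1.56 (1.32 to 1.81) at 3 days and 5.20 (4.98 to 5.43) at 7 days. Ly6a, Sca-1, had 49.6, 72.4 and 564 CPM, with a log2 ratio of 3.51 (3.37 to 3.65) at 7 days. Ly6c2, the Ly6C antigen of classical monocytes, had 228, 270 and 961 CPM, a log2 ratio of 2.08 (2.01 to 2.14) at 7 days. For these genes PBS and 3-day WGP were close beside the step to 7-day WGP, except Ly6i, which was already higher at 3 days. Ly6e had 1236, 1277 and 1866 CPM, a log2 ratio of 0.59 (0.56 to 0.63) at 7 days. Ly6c1 and Ly6g stayed at or under 1.70 CPM in all 3 libraries.

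A gene was counted as past 2-fold where the log2 ratio of CPM + 10 was at least 1 in size, among genes of at least 10 CPM on average. At 7 days 3 of the 5 members that passed this filter in the monocyte/macrophage class were higher than in PBS (Ly6i, Ly6a and Ly6c2) and 1 was lower (Ly6d), where 4.42% of the 7650 genes tested were higher and 5.22% lower. At 3 days 1 of 5 was higher (Ly6i, where 3.73% of genes were) and 1 lower (Ly6d, where 3.07% were). The median log2 ratio of all genes in the class was −0.03 at 3 days and −0.10 at 7 days.

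Ly6d had 49.1 CPM in this class in PBS, 18.2 at 3 days and 19.3 at 7 days. The summed level of 8 B cell markers moved with it, at 177, 114 and 80.2 CPM, with all 8 markers detected in each library. With barcodes of 2 or more B cell marker UMIs left out, Ly6d was under the filter of 10 CPM, with log2 ratios of CPM + 10 of −0.23 at 3 days and −0.12 at 7 days. With the highest doublet scores left out, its 3-day ratio turned from −1.07 to 0.48. The 3-day difference of Ly6i was not seen among Xist-carrying barcodes, where Ly6i stood at 17.9 CPM in PBS (752 barcodes), 16.2 at 3 days (78 barcodes) and 578 at 7 days (557 barcodes). Chromosome Y barcodes of the class, only 9 of them in PBS, had 41.2, 55.6 and 793 CPM. Among chromosome Y barcodes Ly6e was also past 2-fold at 7 days (1.25). The 7-day differences of Ly6i, Ly6a and Ly6c2 were past 2-fold in either set of barcodes, with log2 ratios of CPM + 10 of 4.40, 3.00 and 2.04 among Xist barcodes and 3.97, 3.18 and 1.23 among chromosome Y barcodes.

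**Figure D2:**
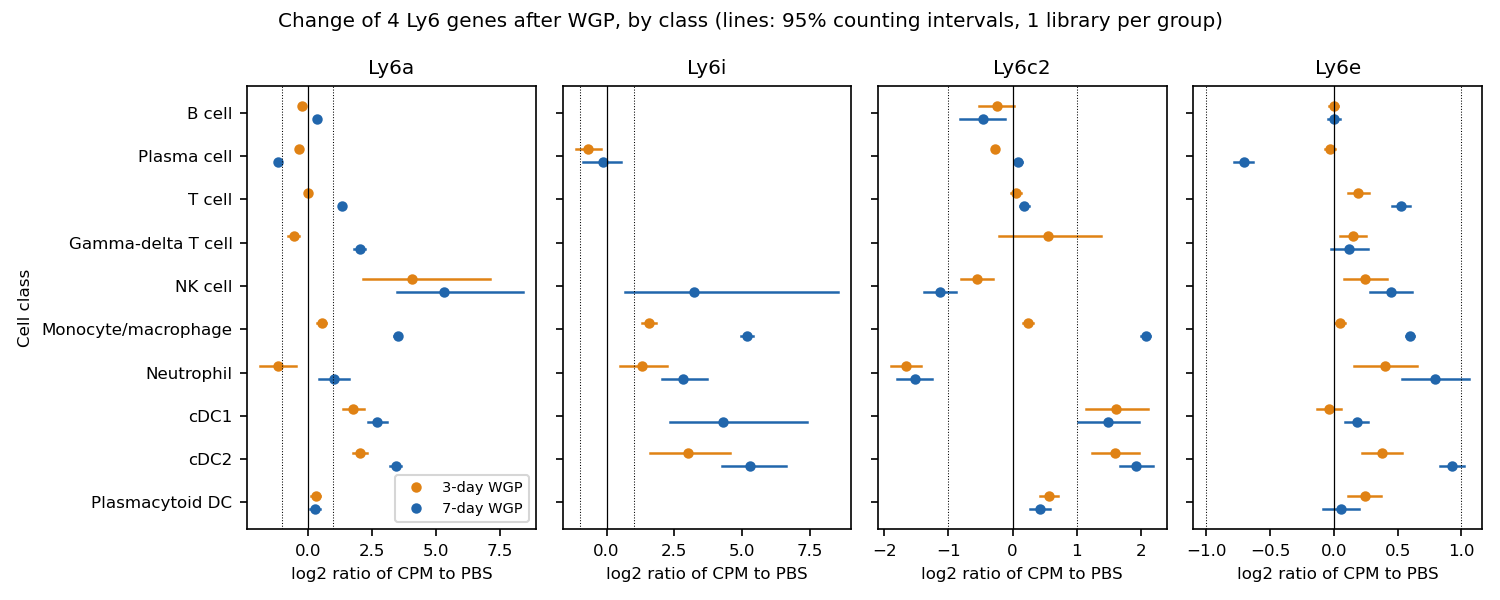
Log2 ratio of CPM to PBS (x axis, a scale of its own in each panel) of Ly6a, Ly6i, Ly6c2 and Ly6e in 10 cell classes (y axis), for 3-day WGP (orange) and 7-day WGP (blue), with 95% counting intervals as lines and dotted lines at 2-fold. Ratios against a class without UMIs of the gene in PBS, or with under 20 UMIs in all, are left out. The Ly6i ratio of the monocyte/macrophage class lies at 1.56 and 5.20, and that of Ly6e stays within 2-fold in each class shown.

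The class was a mixture of 8 sub-clusters whose shares differed between libraries. Resident macrophage-like cells (Mrc1, Fcrls, Cd163) made up 73.3% of the class in PBS, 12.8% at 3 days and 2.68% at 7 days. Arg1 macrophage-like cells made up 1.003%, 51.8% and 17.3%, inflammatory macrophage-like cells (Ccl5, Cxcl9 and Il1b, with the haemoglobin genes Hbb-bs and Hbb-bt among the leading genes) 2.01%, 7.18% and 46.7%, and monocyte-like cells (Vcan, Plac8, Chil3) 12.3%, 16.2% and 21.5%. The other 4 sub-clusters stayed unnamed. Levels were therefore also compared within each named sub-cluster.

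In the 4 named sub-clusters Ly6a was higher in 7-day WGP than in 3-day WGP. In monocyte-like cells it had 54.0 CPM in PBS (98 barcodes), 96.8 at 3 days (124) and 483 at 7 days (313), a log2 ratio of 3.16 (2.76 to 3.59) between 7-day WGP and PBS. In resident macrophage-like cells it had 22.7, 210 and 303 CPM (585, 98 and 39 barcodes), higher already at 3 days, with log2 ratios of 3.21 (2.89 to 3.53) and 3.74 (3.37 to 4.10). Arg1 and inflammatory macrophage-like cells numbered only 8 and 16 in PBS, so their 7-day level was set against 3-day WGP. Ly6a had 21.8 and then 327 CPM in the former and 168 and then 707 CPM in the latter. Their few PBS barcodes had 97.8 and 243 CPM, above the 3-day levels.

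Ly6i followed in the same sub-clusters, from 46.9 at 3 days to 317 CPM at 7 days in Arg1 macrophage-like cells and from 164 to 1194 CPM in inflammatory macrophage-like cells. Their few PBS barcodes had 210 and 227 CPM, again above the 3-day levels. Monocyte-like cells had 75.8, 94.9 and 282 CPM in PBS, 3-day WGP and 7-day WGP, a log2 ratio of 1.89 (1.55 to 2.26) at 7 days and an interval that held 0 at 3 days (−0.09 to 0.75). Resident macrophage-like cells had lower levels, with 3.68 CPM in PBS (2.36 to 5.48), 5.69 at 3 days and 30.03 at 7 days (15.0 to 53.7). The PBS and 7-day intervals lay apart, the latter from 11 UMIs in 39 barcodes.

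Ly6c2 was highest in monocyte-like cells among the named sub-clusters, where it had 1828 CPM in PBS, 1214 at 3 days and 2332 at 7 days. The log2 ratio there was −0.59 (−0.68 to −0.50) at 3 days and 0.35 (0.28 to 0.43) at 7 days, against 2.08 in the whole class. The part of the sub-cluster shares in the class-level ratio was not tested. Resident macrophage-like cells had 19.9, 11.4 and 197 CPM, and inflammatory macrophage-like cells 569 CPM at 3 days and 927 at 7 days. With separate clustering of the libraries, the class held 651, 785 and 1277 barcodes and the Ly6c2 log2 ratio of CPM + 10 came to 2.52 at 3 days and 4.40 at 7 days, against 0.24 and 2.03 in the joint clustering.

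Ly6e was high in each of these sub-clusters. In monocyte-like cells it had 2103, 2290 and 2492 CPM, and in resident macrophage-like cells 1141, 2007 and 2353 CPM, a log2 ratio of 1.04 (0.94 to 1.15) at 7 days. Patrolling monocyte-like cells, kept apart from the class (50, 18 and 27 barcodes), had the highest Ly6e of the leukocyte classes of at least 20 barcodes in PBS and 7-day WGP at 2410 and 2395 CPM. This order did not hold with log-normalized clustering or among chromosome Y barcodes, where plasmacytoid DCs were highest, with separate clustering, where B cells (PBS) and plasmacytoid DCs (7-day WGP) were, or at 7 days among Xist barcodes. Only classes of at least 20 barcodes were ranked, and this class of 50, 18 and 27 barcodes could drop out of such sets. A lower Ly6e in it under these settings was thus not shown. Patrolling monocyte-like cells also held Ly6i in PBS at 264 CPM, above the 19.2 CPM of the monocyte/macrophage class, with 374 and 301 CPM after WGP. Ly6a was at 111, 73.3 and 90.4 CPM in them, with overlapping intervals in PBS and 7-day WGP (75.9 to 157 and 46.7 to 158).

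**Figure D3:**
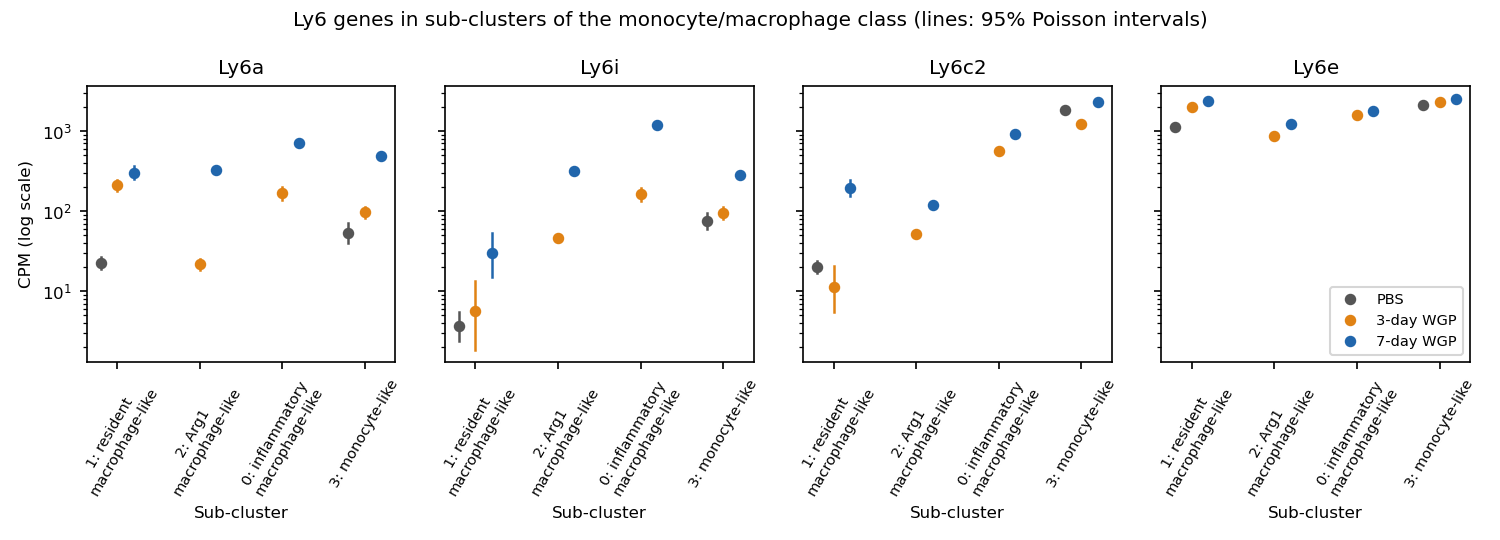
Levels (CPM, log axis) of Ly6a, Ly6i, Ly6c2 and Ly6e in the 4 named sub-clusters of the monocyte/macrophage class (x axis), with 95% Poisson intervals as lines and groups under 20 barcodes left out. In monocyte-like cells Ly6a runs from 54.0 (PBS) to 483 CPM (7-day WGP), while Ly6c2 lies between 1214 and 2332 CPM in the 3 libraries.

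In conventional DCs Ly6a and Ly6c2 were higher after WGP, and in cDC2 also Ly6i. The cDC2-like class (127, 33 and 171 barcodes), dendritic cells that mainly serve CD4 T cells, had 108, 440 and 1162 CPM of Ly6a, higher at each time, with log2 ratios of 2.02 (1.75 to 2.30) and 3.42 (3.22 to 3.63). Ly6c2 had 73.8, 224 and 282 CPM there and Ly6i 3.49, 28.0 and 139 CPM. Different clusters held most of the class in PBS and in 7-day WGP. A cluster led by Cd209a, Mgl2 and Clec10a had 79, 4 and 11 barcodes and Ly6a at 16.1, 94.8 and 261 CPM, with Ly6c2 at 1.89, 0 and 7.68 CPM. One led by Ifitm1, Cd209a and Clec10a had 8, 11 and 122 barcodes and Ly6a at 298, 772 and 1292 CPM, and its Ly6c2 was not above PBS, at 328, 127 and 211 CPM. In a cluster with Cd209d and Cd7 among its leading genes (21, 14 and 30 barcodes), Ly6a had 380, 397 and 1093 CPM and Ly6c2 242, 367 and 591 CPM, with 7-day log2 ratios of 1.52 (1.27 to 1.78) and 1.29 (0.97 to 1.62). That cluster had a median of 18950 UMIs per barcode, and T cell markers were its second list (mean log2 fold 0.76). The part of doublets in it was not tested. At 7 days 3 of 5 members (Ly6a, Ly6c2, Ly6i) were past 2-fold higher, where 3.09% of genes were, and Ly6d was lower (140, 142 and 29.5 CPM), where 2.4% were. B cell markers summed to 373, 531 and 126 CPM in the class.

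The cDC1-like class (123 barcodes in PBS, 138 at 3 days and fewer at 7 days), the cross-presenting dendritic cells, had lower levels than cDC2. Ly6a had 33.5, 115 and 220 CPM and Ly6c2 24.4, 75.01 and 68.5 CPM, both higher in either WGP library than in PBS. Ly6i had 2, 0 and 39 UMIs there and did not pass the filter. At 7 days 2 of 4 members were higher (1.4% of genes) and Ly6d was lower (59.3, 100 and 12.2 CPM, where 0.727% of genes were lower), beside B cell marker sums of 177, 347 and 42.3 CPM. Migratory DCs, with 14, 36 and 41 barcodes, had little of any member, at most 94.5 CPM of Ly6a and 295 CPM of Ly6e, both in 7-day WGP.

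Plasmacytoid DCs, the main producers of type I interferon (48, 82 and 57 barcodes), held the highest Ly6c2 and Ly6d of all classes of at least 20 barcodes in all 3 libraries. For Ly6d this order depended on the clustering, since B cells stood highest in PBS with separate clustering, in 3-day WGP at resolution 1.2, and in all 3 libraries among Xist barcodes. Ly6c2 stood highest in plasma cells (PBS, 3-day WGP) or T cells (7-day WGP) among Xist barcodes. Only classes of at least 20 Xist barcodes were ranked there, so plasmacytoid DCs may not have been among them. Ly6d had 3598 (3402 to 3802), 2294 (2176 to 2417) and 2319 (2179 to 2467) CPM, and Ly6c2 1624, 2408 and 2179 CPM. Ly6a and Ly6e were high as well, at 1060, 1311 and 1276 CPM and at 2097, 2477 and 2179 CPM. The levels of these 4 genes stayed within 2-fold of PBS. Ly6i was not detected in PBS (0 UMIs, which allows up to 8.55 CPM at a floor of 3 UMIs), and had 11.4 CPM at 3 days and 59.7 at 7 days, at least 6.98-fold higher than that floor. Its 7 UMIs at 3 days lay in 2 of 82 barcodes and its 26 at 7 days in 4 of 57, all also with Ly6a. Cxcl9, a leading gene of inflammatory macrophage-like cells, was at 0 CPM in PBS and 411 at 7 days in this class. Whether the Ly6i UMIs came from plasmacytoid DCs was not tested. Ly6i was the 1 member of 5 past 2-fold at 7 days, where 4.52% of genes were higher and 2.86% lower.

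Ly6g was found almost only in neutrophils, which held 97.9%, 91.5% and 89.6% of its UMIs in PBS, 3-day WGP and 7-day WGP with 87, 234 and 191 barcodes. The level was 549 CPM (491 to 613), 163 (140 to 188) and 68.5 (49.6 to 92.3), a log2 ratio to PBS of −1.75 (−2.02 to −1.49) at 3 days and −3.003 (−3.50 to −2.54) at 7 days. All other classes were at or under 0.85 CPM. The class was made of 2 clusters. Cluster 25, led by Ngp, Camp, Lcn2 and Ltf, genes of granules made during neutrophil maturation, had 36, 13 and 6 barcodes and Ly6g at 692, 560 and 335 CPM. Cluster 14, led by Hdc, G0s2 and Cxcl2, had 51, 221 and 185 barcodes and 86.7, 61.2 and 9.72 CPM. The share of cluster 25 in the class was lower in the WGP libraries, and Ly6g was also lower at 7 days than in PBS within each cluster. In cluster 25 the intervals lay apart (617 to 773 in PBS and 237 to 460 at 7 days), and in cluster 14 the log2 ratio was −3.16 (−5.01 to −1.55, from 12 and 5 UMIs).

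Ly6c2 in neutrophils showed the same order of clusters, with 859, 755 and 838 CPM in cluster 25 and 101, 76.8 and 103.1 CPM in cluster 14. For the class it was 680, 215 and 236 CPM, while within either cluster the libraries overlapped in their intervals. Ly6i went from 25.5 through 63.8 to 182 CPM in the class and was found in cluster 14, at 108, 79.0 and 222 CPM, against 0, 1 and 0 UMIs in cluster 25. Within cluster 14 its 3-day level was not above PBS. Neutrophil Ly6e had 320, 423 and 554 CPM. At 7 days 1 of 6 members was past 2-fold higher (Ly6i, where 13.3% of genes were) and 2 were lower (Ly6c2 and Ly6g, where 4.05% were), with a median of 0.19 over all genes of the class. Mast cells and basophils had 135, 294 and 201 CPM of Ly6a and 6.28, 132 and 104 CPM of Ly6c2, the first of these from 2 UMIs.

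**Figure D4:**
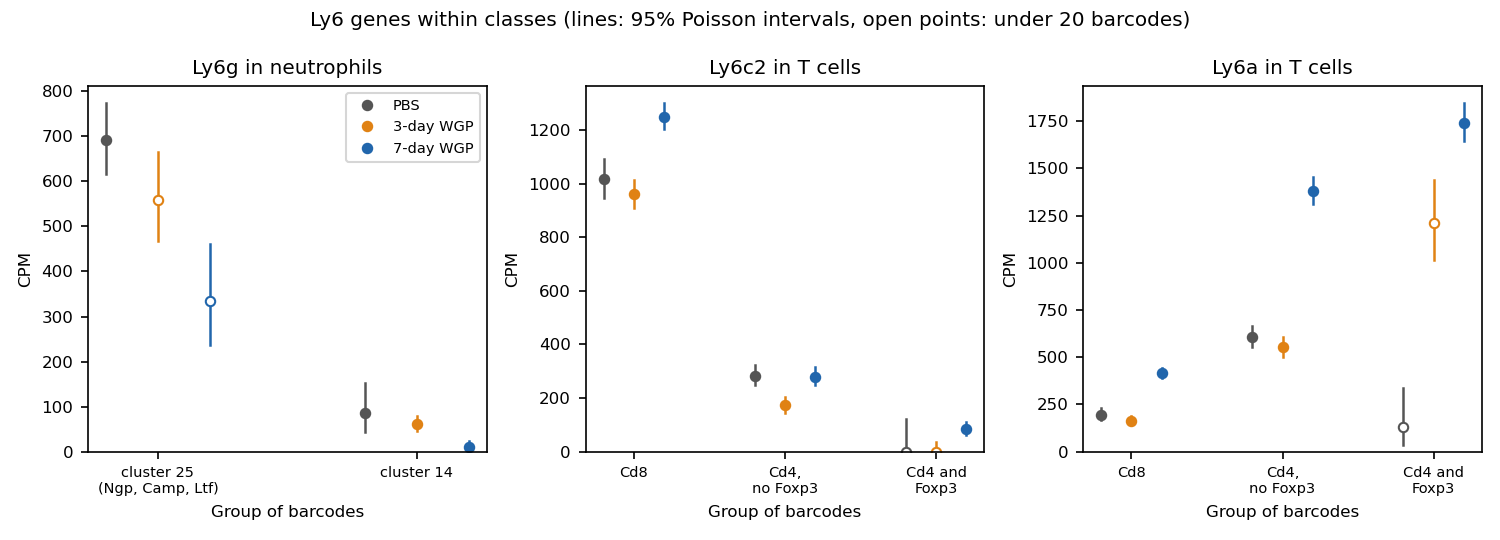
Levels (CPM, linear axes from 0) of Ly6g in the 2 neutrophil clusters, and of Ly6c2 and Ly6a in T cells split by UMIs of Cd8, Cd4 and Foxp3 (x axes), for PBS (grey), 3-day WGP (orange) and 7-day WGP (blue), with 95% Poisson intervals as lines and open points for under 20 barcodes. Ly6g lies between 335 and 692 CPM in cluster 25 and at or under 86.7 CPM in cluster 14. T cells with UMIs of neither Cd4 nor Cd8 are not shown.

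In T cells (553, 658 and 703 barcodes) Ly6a had 328 CPM in PBS, 329 at 3 days and 836 at 7 days, a log2 ratio of 1.35 (1.25 to 1.45) at 7 days and none at 3 days (0.00, −0.12 to 0.13). Ly6c2 had 765, 792 and 870 CPM. Ly6c1 was lower with time, at 68.1, 39.6 and 20.9 CPM, a log2 ratio of −1.71 (−2.05 to −1.37) at 7 days. Of 5 members 1 was past 2-fold higher at 7 days (Ly6a, where 1.24% of genes were) and 1 lower (Ly6c1, where 0.148% were). Ly6i was at 0, 0.53 and 13.1 CPM, at least 12.3-fold over the floor of 3 UMIs in PBS. Its 75 UMIs at 7 days lay in 12 barcodes with Ly6a and 10 without, of which 1 held 17 UMIs. Cxcl9, a leading gene of inflammatory macrophage-like cells, was at 0.71 CPM in PBS and 68.7 at 7 days in T cells. Whether the Ly6i UMIs came from T cells was not tested.

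T cells were split by UMIs of Cd4, Cd8a or Cd8b1 and Foxp3, the factor of regulatory T cells. Barcodes with a Cd8 UMI (122, 193 and 232) carried Ly6c2 at 1018, 960 and 1250 CPM and those with Cd4 and no Foxp3 (135, 141 and 151) at 283, 173 and 280 CPM. The order was turned for Ly6a, at 196, 164 and 416 CPM with Cd8 and 608.5, 553 and 1382 CPM with Cd4. Barcodes with Cd4 and Foxp3 were few in PBS and 3-day WGP (6 and 13), and the 43 of 7-day WGP had the highest Ly6a of the T cells, 1742 CPM (1643 to 1846). The largest group had UMIs of neither Cd4 nor Cd8 (279, 287 and 265 barcodes). It had Ly6c2 at 958, 1161 and 1137 CPM and Ly6a at 228, 269 and 550 CPM.

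The levels in T cells also depended on which barcodes entered. Among Xist-carrying T cells Ly6a had 371, 232 and 297 CPM, and among those with chromosome Y transcripts 278, 405 and 1147 CPM, so that 7-day WGP was above PBS in the latter and below it in the former. Ly6c1 had 19.6, 38.5 and 44.6 CPM in the former and 103.02, 27.9 and 5.53 CPM in the latter, in opposite directions. Within the T cell clusters, Ly6c1 was highest in cluster 13 (Dapl1, Lef1, Cd8b1, Tcf7; genes of naive T cells among them) at 209, 79.7 and 118 CPM, and Ly6c2 in cluster 7 (led by Elane, Xcl1 and Ikzf2, with the cytotoxic cell genes Ccl5 and Nkg7) at 1304, 1352 and 1218 CPM. The Ly6a difference was present in clusters 7 and 9 (the latter led by Tnfrsf4, Trac and Icos; log2 ratio 1.66 and 1.38 at 7 days) and had the other sign in cluster 13 (−0.68).

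Gamma-delta T cells (137, 399 and 62 barcodes) had 375, 256 and 1527 CPM of Ly6a, with 7-day WGP above both other libraries (log2 ratio to PBS 2.02, 1.80 to 2.25), and similar Ly6e, 1571, 1744 and 1707 CPM. At 7 days 2 of 5 members were past 2-fold higher (Ly6a and Ly6c1, the latter with 2 and 11 UMIs; 2.15% of genes) and 2 lower (Ly6c2, with 18 UMIs in PBS and 1 in 7-day WGP, and Ly6d, at 245, 109 and 25.3 CPM; 2.81% of genes). B cell markers summed to 816, 466 and 202 CPM in these cells.

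In NK cells (108, 397 and 389 barcodes) Ly6a had 3.67 CPM in PBS from 2 UMIs, 60.9 at 3 days and 147 at 7 days, a log2 ratio of 5.33 at 7 days whose counting interval ran from 3.46 to 8.38. Ly6c2 was lower at each time, at 331, 225 and 151 CPM, a log2 ratio of −1.13 (−1.39 to −0.88). Of 4 members 1 was higher (Ly6a; 1.75% of genes) and 1 lower (Ly6c2; 0.267% of genes). Within barcodes of either kind the 7-day Ly6a was above PBS, with 0 and 73.8 CPM among Xist barcodes and 25.9 and 235 CPM among chromosome Y barcodes. These PBS values rested on no more than the 2 UMIs given above. The 123 Ly6a UMIs at 3 days lay in 13 barcodes without Ly6i and 2 with it. The 421 at 7 days lay in 45 barcodes without Ly6i and 9 with it. Cxcl9, a leading gene of inflammatory macrophage-like cells, was at 1.84 CPM in PBS and 116 at 7 days in NK cells. Whether the Ly6a UMIs came from NK cells was not tested.

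Group 2 innate lymphoid cells (ILC2), makers of type 2 cytokines, had 747 CPM of Ly6a in PBS, 1147 at 3 days and 1339 at 7 days, the last from 11 barcodes, and 1489, 1957 and 1329 CPM of Ly6e. They were the only leukocyte class with more Ly6c1 than Ly6c2 UMIs, 41 against 13 over the 3 libraries. Ly6d was at 171 CPM in PBS and 13.2 in 3-day WGP, beside B cell marker sums of 510 and 99.0 CPM.

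Ly6d was the B-lineage member. B cells (1946, 835 and 517 barcodes) had 2383, 1940 and 2084 CPM and plasma cells (257, 590 and 81 barcodes) 1338, 1222 and 665 CPM. With each barcode thinned to 1000 UMIs, a Ly6d UMI was found in 84.9%, 81.0% and 79.5% of B cells (96.6%, 95.8% and 96.1% unthinned) and in 2.17%, 0.91% and 0.85% of T cells (5.24%, 2.89% and 2.70% unthinned). Median UMIs per barcode were 3827, 4219 and 5021 in B cells and 3633, 4984.5 and 6364 in T cells. B cells differed little between libraries: Ly6e had 1584, 1580 and 1584 CPM, Ly6a 828, 713 and 1062 CPM and Ly6c2 34.4, 29.0 and 24.9 CPM, and 0 of 4 members were past 2-fold at 7 days, where 0.407% of genes were higher and 0.196% lower.

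Plasma cells, which secrete antibody, had about as much Ly6c2 as T cells and far more than B cells, with 807, 670 and 854 CPM. They held 49.5%, 56.8% and 10.6% of all Ly6c2 UMIs in the libraries, with 4.90%, 12.1% and 1.94% of the barcodes. Their barcodes were deep, with a median of 28050 UMIs against 5755, 5754 and 8077 over all barcodes of the libraries. Ly6a had 1129, 895 and 511 CPM, the 1 member of 4 that was past 2-fold lower at 7 days (3.51% of genes; 0.702% were higher), and Ly6e 924, 904 and 566 CPM. The median of all genes in this class was −0.40 at 7 days, below which Ly6a and Ly6e (−0.71) still lay, whereas Ly6c2 had a log2 ratio of 0.08 (0.02 to 0.14).

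Endothelial cells were 49 barcodes (39, 3 and 7), non-leukocytes that a sort for CD45 is meant to remove, from a cluster that also held islet hormone genes (Sst, Pyy, Iapp), and only barcodes with at least 4 of 8 endothelial markers were kept. All 8 markers (Pecam1, Cdh5, Kdr, Flt1, Egfl7, Emcn, Plvap, Esam) were detected in each library, a result that this selection favours. Ly6c1 had 2017 CPM in PBS (1833 to 2215), 5955 at 3 days (4360 to 7943) and 1801 at 7 days (1407 to 2272), the 3-day value from 46 UMIs in 3 barcodes. Ly6a had 2302, 4013 and 2080 CPM and Ly6e 1701, 2589 and 2740 CPM. Ly6c2 was found with 2 UMIs and Ly6i with 0. Endothelial cells held 37.4%, 8.03% and 19.3% of the Ly6c1 UMIs of the libraries, with 0.743%, 0.061% and 0.168% of the barcodes. Fibroblasts held 32.0%, 39.4% and 17.9% of these UMIs and T cells 16.3%, 26.0% and 32.3%. Fibroblasts (26, 27 and 9 barcodes) had 941, 463 and 329 CPM of Ly6c1 and 2871, 1907 and 3088 CPM of Ly6a.

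The ratio of the similar genes differed between classes. Ly6c1 made up 99.6% of the Ly6c1 and Ly6c2 UMIs in endothelial cells (98.7% to 99.96%), 95.8% in fibroblasts (94.1% to 97.2%) and 75.9% in ILC2 (62.4% to 86.5%), but 4.35% in T cells, 0.34% in plasma cells, 0.22% in the monocyte/macrophage class and 0.20% in plasmacytoid DCs. The intervals of these first 3 classes lay apart from those of the last 4. T cells were themselves split: Ly6c1 made up 26.6%, 31.5% and 19.8% of these UMIs in those with Cd4 and no Foxp3 and 0.88%, 0.40% and 0.12% in those with Cd8.

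Ly6i made up 75.6% (69.4% to 81.1%) of the Ly6i and Ly6a UMIs in patrolling monocyte-like cells, 56.1% in neutrophils and 54.2% in the monocyte/macrophage class, but 9.89% in cDC2, 1.10% in T cells, 0.67% in plasma cells and 0.11% in B cells. These shares pool libraries that differed: in the order PBS, 3-day WGP and 7-day WGP the share was 27.9%, 43.9% and 55.6% in the monocyte/macrophage class, 27.8% (16.5% to 41.6%), 67.9% and 57.6% in neutrophils, and 70.4%, 83.6% and 76.9% in patrolling monocyte-like cells. In 7-day WGP, 793 of its barcodes carried both genes, 305 only Ly6i and 159 only Ly6a. Thinned to 1000 UMIs, a Ly6i UMI was found in 1.25%, 3.00% and 37.7% of the class (5.89%, 26.9% and 75.4% unthinned), against 0.43% of T cells in 7-day WGP (3.13% unthinned). Median UMIs per barcode in that library were 10897 in the class and 6364 in T cells.

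**Figure D5:**
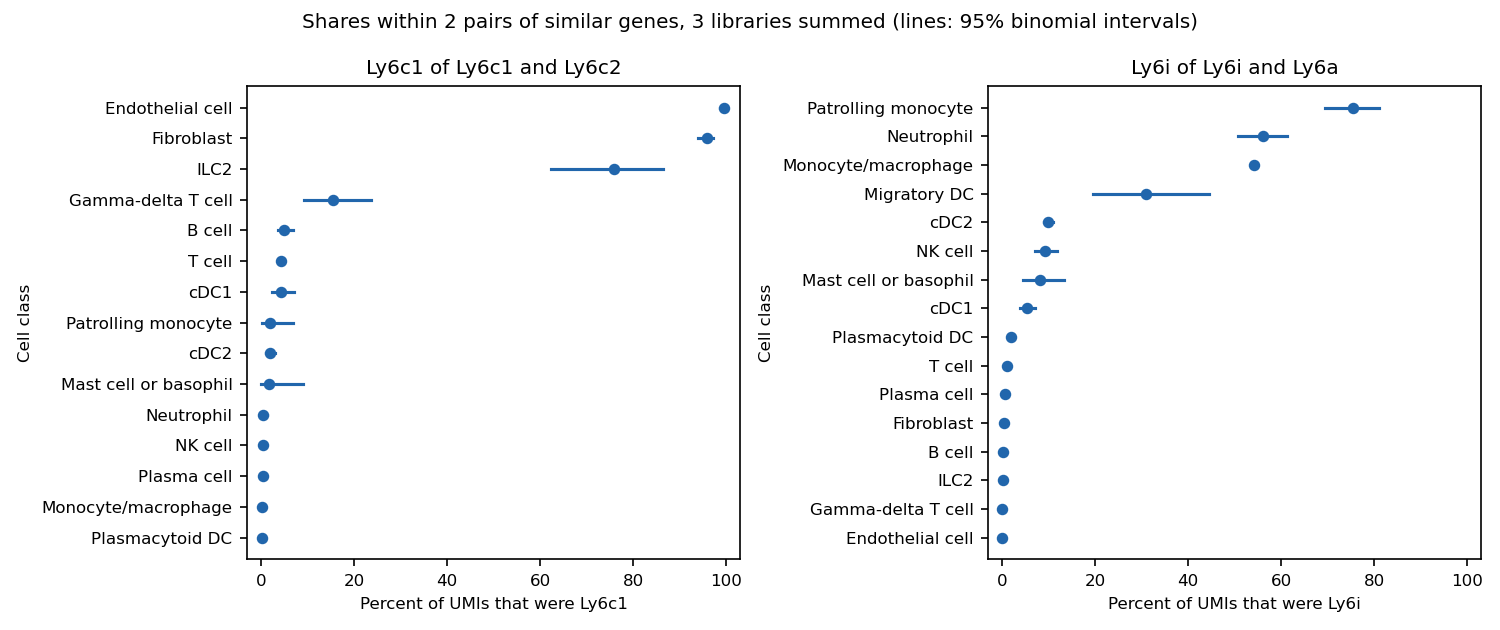
Percent of UMIs (x axes, 0 to 100) that were Ly6c1 among Ly6c1 and Ly6c2 (left) and Ly6i among Ly6i and Ly6a (right) in each cell class (y axes, ordered by the share), with the 3 libraries summed and 95% binomial intervals as lines. Ly6c1 stands above 50 percent in endothelial cells (99.6%), fibroblasts (95.8%) and ILC2 (75.9%), and Ly6i in patrolling monocytes (75.6%), neutrophils (56.1%) and the monocyte/macrophage class (54.2%), both of which were under 50 percent in PBS alone.

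A list of 30 interferon-response genes was set beside the family, since several members are known to respond to interferons. In the monocyte/macrophage class 14 of 30 were past 2-fold higher and 0 lower in 7-day WGP (4.42% and 5.22% of all genes), with a median log2 ratio of 0.88 against −0.10 for all genes tested. The chemokine Cxcl10 (4.29), the guanylate-binding protein gene Gbp2 (3.59), Cxcl9 (3.48) and Gbp4 (3.37) had the largest values. At 3 days 6 of 30 were higher and 1 lower (median 0.11). In other classes at 7 days the counts of higher genes were 24 of 27 in neutrophils (where 13.3% of all genes were higher), 19 of 29 in cDC2 (3.09%), 14 of 19 in gamma-delta T cells (2.15%), 13 of 25 in cDC1 (1.4%) and 12 of 24 in plasmacytoid DCs (4.52%). They were 9 of 25 in T cells (1.24%), 9 of 21 in NK cells (1.75%), 6 of 19 in B cells (0.407%) and 4 of 16 in plasma cells (0.702%), and 1 gene of the list was lower in plasma cells (Ifi27l2a, −1.56) and 0 in the other classes. Cxcl9, a leading gene of inflammatory macrophage-like cells, was counted as higher in T cells (2.88), NK cells (3.42) and plasmacytoid DCs (5.39). Whether its UMIs came from those cells was not tested. Ly6e, also interferon-inducible, was within 2-fold of PBS in each of these classes. Its 7-day log2 ratios lay between −0.71 in plasma cells and 0.93 in cDC2. Within the monocyte/macrophage class it was past 2-fold in resident macrophage-like cells, at 1141 CPM in PBS and 2353 in 7-day WGP. It was also past 2-fold among chromosome Y barcodes of that class, as given above.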

How the data were processed

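The deposited counts were UMI counts per gene and barcode, made by the authors with Cell Ranger 3.1.0 on mm10 and left unnormalized, 1 matrix per library. From these, barcodes with at least 1000 UMIs and at most 30% mitochondrial UMIs were kept, and no upper limit and no limit on ribosomal-protein UMIs was set. The 7 members and all gene lists were chosen with earlier results of these data known. The libraries were clustered together in Seurat 5.3.0 with sctransform 0.4.2 (R 4.3.3; 3000 variable genes without the Ly6 genes, 30 principal components, resolution 0.8, and 0.4 for sub-clusters). A cluster was named where at least 3 markers of a list were higher, with a mean log2 fold of at least 1 and a margin of 0.5 over the next list. No other list could have more markers among the leading genes of the cluster. These thresholds, the splitting of mixed clusters and the rule of 4 of 8 endothelial markers were set after the clusters were seen. Clusters that failed were tried against the sub-cluster lists, which gave the patrolling monocyte-like class, and otherwise stayed unnamed.

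UMIs were summed per class and library and divided by the class total (CPM). Log2 ratios to PBS carry exact conditional intervals; counts past 2-fold used log2(CPM + 10) and genes with a mean of at least 10 CPM, in classes of at least 20 barcodes per library. A level of 0 was given a floor of 3 UMIs. Shares of cells with a UMI were taken after thinning to 1000 UMIs. The ratios and intervals were tested on simulated class sums with counting error only, which cannot speak to differences between mice or libraries. Doublets were not removed: the automatic threshold of Scrublet (scanpy 1.11.5) marked 0, 0 and 2 barcodes, so leaving out the highest scores, 0.8% per 1000 barcodes, was an alternative, as were other filters, clusterings, TMM factors (edgeR 4.0.16), pseudocounts and barcodes of either sex. Barcodes with Xist or chromosome Y UMIs were those with 1 kind and not the other.

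Protein identity came from translating GENCODE coding sequences of GRCm38, aligned end to end with biopython 1.88. Beside the members, the text names the 3 genes outside the family with the most similar pattern for each member (those of Ly6c2 are not reported here), neighbouring genes of the cluster with at least 20 UMIs, and up to 4 genes of the interferon list; B cell markers, cluster leaders and their genes were named after their values were seen. No columns of sample values were left unused.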

Additional observations from a re-analysis of the deposited data

Results flagged for a closer look

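Some members differed from PBS in opposite directions in different classes. With 1 library per group none of these differences was tested, and all values are log2 ratios of CPM + 10. Ly6a was higher in NK cells at 7 days (3.53, against 2 UMIs in PBS) and lower in plasma cells (−1.13). Ly6c2 at 3 days was higher in cDC2 (1.48) and lower in neutrophils (−1.62), and at 7 days it was higher in the monocyte/macrophage class (2.03) and lower in neutrophils (−1.49).

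T cells with Xist UMIs and those with chromosome Y UMIs also differed from their PBS counterparts in opposite directions. Ly6a at 7 days was at −0.31 among Xist barcodes and 2.01 among chromosome Y barcodes. Ly6c1 was at 0.71 and −1.58 at 3 days and at 0.88 and −2.86 at 7 days, and Ly6c2 at 3 days was at −1.22 and 0.31. Sex, and which mice entered a library, cannot be told apart here, and the difference between these ratios was not tested.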

How the results depend on the processing

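Of 217 values recomputed under an alternative, 2 had the other sign and 62 ratios of single members and 10 other results had moved, while 96 and 47 lay close to the values reported. In the monocyte/macrophage class at 3 days, Ly6d turned to 0.48 with the highest doublet scores left out, and Ly6i to −0.09 among Xist barcodes. The count of members past 2-fold at 3 days was 0 with log-normalized clustering, and 1 with Ly6 genes kept in the clustering, chromosome Y barcodes only or TMM factors; it was also 1 in the 3 alternatives added after seeing the data, with barcodes of 2 or more B cell marker UMIs left out, with the 4 unnamed sub-clusters left out, and with patrolling monocytes counted with the class. The 7-day count stayed between 3 and 5. Members with the same highest class in all 3 libraries numbered 1 among Xist barcodes, where classes of under 20 such barcodes were not ranked. Classes with more Ly6c1 than Ly6c2 UMIs numbered 1 (ILC2) without classes under 100 barcodes, an alternative also added after seeing the data. Of the 21 most similar genes, 12 were shared with a pseudocount of 1 CPM. The causes were not tested. No paired analysis was possible because each group was 1 library.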

Other observations

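Other genes of the Ly6 cluster were sparse in these cells. Gpihbp1, which carries lipoprotein lipase across capillary endothelium, had 297 UMIs in all and 1022 CPM in endothelial cells. Ly6k had 1801 UMIs and stood highest in plasma cells at 48.4 CPM, Lynx1 had 901 UMIs and stood highest in plasmacytoid DCs at 44.2 CPM, Ly6h had 26 UMIs and stood highest in fibroblasts at 17.5 CPM, and 2010109I03Rik had 126 UMIs and stood highest in plasma cells at 2.28 CPM.

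For the members other than Ly6c2 the genes with the most similar pattern were sought over 47 points (classes in each library) among 7655 genes, by Pearson's r of log2(CPM + 10). The points share libraries and cells, and r is a description across them. Ly6g was closest to Ceacam10, B230208H11Rik and Ltf (each 0.99), Ly6d to Iglc3 (0.95), Fcrla (0.91) and Cd79b (0.88), and Ly6c1 to Atp8b1 (0.93), Eml1 (0.92) and Cyp2d22 (0.92). Ly6i was closest to Smpdl3b (0.87), Fcgr4 (0.86), an Fc receptor gene, and Sirpb1c (0.84), and Ly6e to Papola (0.93), Jtb (0.93) and Zfp706 (0.91). The values were lower for Ly6a (Stt3b 0.76, Ctso 0.73, Slc50a1 0.73).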
